A study of Mus musculus with 2 samples.

Results

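Mir375 and the linked hairpins Mir216a, Mir216b and Mir217 are microRNA genes best known from the pancreas, and their levels were measured in embryonic mouse hindbrain. The members were the 4 gene rows whose Ensembl identifiers carry these names in GENCODE, out of 1973 microRNA gene rows. All 4 passed the minimum for detection, 10 counts in each library, which 356 genes met. Hindbrain was taken from healthy B6NCrl embryos of both sexes, pooled, at embryonic day 13.5, and short RNA was sequenced in 2 libraries labelled as biological replicates 1 and 2. The labels give both the same donor identifier and name no litters, so p-values between them may rest on technical spread. They form 1 group, with no treatment, genotype or second stage, so levels and their agreement between libraries were examined and no condition was compared.

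A microRNA is cut from a hairpin transcript into a short mature strand, from the 5′ arm (5p) or the 3′ arm (3p), which guides the silencing complex to messenger RNAs. Pairing of the seed, bases 2 to 8 of the mature strand, to a site in the target does most to decide which messages are repressed. Mir375 is abundant in pancreatic islets, where it restrains insulin secretion, and is also known from other neuroendocrine cells such as those of the pituitary. Mir216a, Mir216b and Mir217 are abundant in the acinar cells of the exocrine pancreas and lie close together on 1 strand.

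The mature sequences below come from RefSeq on GRCm38.p6 and are shown because the printed seeds differ between the members. The seed is in capitals, and each is written 5′ to 3′. For Mir375 the arm given is miR-375-5p, and miR-375-3p is named only, because its sequence was not in the RefSeq table used. Statements on printed seeds therefore do not cover the seed of miR-375-3p. Which arm of Mir375 gave its reads cannot be told from the counts.
miR-375-5p: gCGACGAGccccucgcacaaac
miR-216a-5p: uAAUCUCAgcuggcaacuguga
miR-216b-5p: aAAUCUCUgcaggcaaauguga
miR-217-5p: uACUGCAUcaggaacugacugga
miR-216a-3p: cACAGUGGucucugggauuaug
miR-216b-3p: aCACUUACcuguagagauucuu
miR-217-3p: cAUCAGUUccuaaugcauugccu

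No printed seed was shared in full with another mature sequence of that RefSeq table. The 5p arms of Mir216a and Mir216b were the closest, with 18 of 22 positions identical. Counted from the 5′ end, and with the Mir216a base first, they differed by U1A, A8U, U11A and C17A. Bases 2 to 7 were thus the same and A8U, the last base of the seed, was the difference within it. The 3p arms of these genes were far less alike, with 7 of 22 positions identical. Position by position, miR-216a-5p and miR-217-5p had 6 of 22 compared positions in common, so Mir217 shares its locus with the Mir216 genes and not their 5p seed.

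The tables count reads per hairpin gene and do not separate the arms, so the values below sum 5p and 3p reads. Reads that matched several places were set aside by the counting, which lowers genes with near-identical copies. Stretches of 20 nt of each hairpin were therefore compared with 2202 microRNA hairpins of GENCODE M21. None of the 53 stretches of Mir216a, 67 of Mir216b, 89 of Mir217 or 45 of Mir375 occurred in another hairpin. By comparison, 80 of the 356 detected genes shared at least 1 such stretch.

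Mir375 (ENSMUSG00000065616.2 in the tables) lies on the minus strand at chr1:74900658-74900721 in GENCODE M21, GRCm38, whose entry carries a later version of the identifier. It is intergenic there, 1349 bases downstream of Cfap65 and 7514 bases upstream of Cryba2, a lens crystallin gene, both on the same strand. On the plus strand of chromosome 11, Mir216b (ENSMUSG00000076318.1) lies at chr11:28746191-28746276, Mir216a (ENSMUSG00000065539.1) at chr11:28757012-28757083 and Mir217 (ENSMUSG00000065415.1) at chr11:28763728-28763835. Mir216b and Mir216a are 10735 bases apart, Mir216a and Mir217 6644 bases, and the locus spans 17645 bases in all. Mir216a and Mir217 lie in an intron of Gm12082, a long non-coding RNA gene, whose annotated start is 5356 bases beyond the end of Mir216b, so Mir216b is intergenic. The nearest protein-coding gene downstream, Efemp1, begins 89368 bases past Mir217.

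Libraries were 3006571 counts deep in replicate 1 and 4508244 in replicate 2, summed over gene rows on the annotated strand. Levels are counts per 1000000 of those counts (CPM), with 95% exact Poisson intervals that cover counting error only. The sources mention no molecular identifiers, so copies of 1 molecule could not be told from separate molecules. These intervals, and the p-values that rest on counts alone, may therefore understate even the counting error. As a check of the tissue label, microRNAs of the Hox clusters, which pattern hindbrain and trunk, summed to 111500 and 135700 CPM. Most of this came from Mir10a (75370 and 92740 CPM) and Mir10b (34040 and 40140 CPM). Of the 6 genes 4 were detected, and none was at 0 in both libraries. Mir196a-1 (0 and 1 counts) and Mir196a-2 (2 and 7), which share 20-nt stretches with other hairpins, were not detected. The neuronal markers summed to 9100 and 8886 CPM with 4 of 7 detected. The 3 undetected ones were the Mir124a copies, at 6, 7 and 6 counts in replicate 1 and 23, 21 and 2 in replicate 2, and these share 20-nt stretches with other hairpins.

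Mir375 was the most abundant of the 4 and stood in the upper part of the detected genes. It had 3525 counts in replicate 1 and 4515 in replicate 2, or 1172 CPM (interval 1134 to 1212) and 1001 CPM (interval 972.5 to 1031). The mean was 1087 ± 121 CPM (SD, n = 2), 0.109% of the counts and 6.56 times the median of detected genes, 165.7 CPM. It stood at rank 91 of 356 by mean CPM, at 88 in replicate 1 and 92 in replicate 2, with 74.4% of detected genes below it.

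Mir217 was the most abundant gene of the chromosome 11 locus. It had 1165 and 1316 counts in replicates 1 and 2, or 387.5 CPM (interval 365.6 to 410.4) and 291.9 CPM (interval 276.3 to 308.1). Its mean of 340 ± 67.6 CPM (SD, n = 2) put it at rank 142, 2.05 times the median detected gene. The intervals of the libraries did not overlap, and replicate 1 was the higher.

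Mir216b had 432 and 489 counts in replicates 1 and 2, or 143.7 CPM (interval 130.5 to 157.9) and 108.5 CPM (interval 99.07 to 118.5). The mean was 126 ± 24.9 CPM (SD, n = 2), at rank 190 and below the median detected gene, and again replicate 1 was the higher with intervals apart. Mir216a, whose 5p arm resembles that of Mir216b, was the lowest of the 4, with 281 and 377 counts. These gave 93.5 CPM (interval 82.9 to 105.1) and 83.6 CPM (interval 75.4 to 92.5), intervals that overlapped. Its mean was 88.5 ± 6.96 CPM (SD, n = 2), at rank 210 with 41.0% of detected genes below it.

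**Figure D1:**
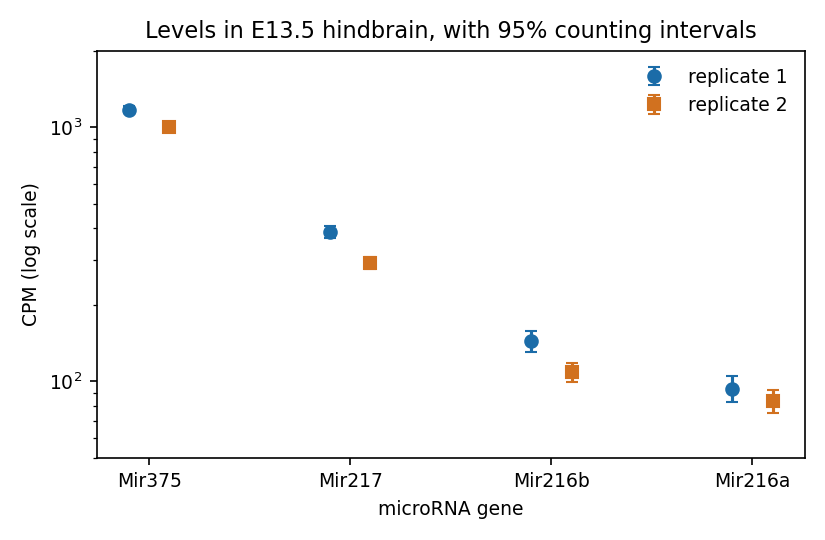
Level of each member in CPM (log axis) in replicate 1 (circles) and replicate 2 (squares) of embryonic day 13.5 hindbrain, with 95% Poisson counting intervals as bars. Mir375 lay at 1172 and 1001 CPM, Mir217 between 291.9 and 387.5, Mir216b between 108.5 and 143.7 and Mir216a between 83.6 and 93.5, with no overlap of these values between genes, although the counting intervals of Mir216a in replicate 1 and Mir216b in replicate 2 overlap.

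The order Mir375, Mir217, Mir216b, Mir216a was the same in both libraries, and no 2 members had overlapping ranges of CPM. Counts were compared between genes without division by length, because the labels give inserts under 30 nt, so a read stands for a mature strand and not for a position along a hairpin. Divided by hairpin length, the order was unchanged, at 17.0 CPM per base for Mir375 (64 bases), 3.15 for Mir217 (108 bases), 1.47 for Mir216b (86 bases) and 1.23 for Mir216a (72 bases). Their sum was 1797 CPM in replicate 1 and 1486 CPM in replicate 2, with Mir375 giving 65.2% (Wilson 95% interval 64.0 to 66.5) and 67.4% (66.3 to 68.5) of their counts.

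In order of level, the genes next to each member came from other loci. The genes next above Mir375 by mean CPM were Mir34c at 1106 ± 402 and Mir188, in an intron of the chloride channel gene Clcn5, at 1092 ± 4.82 CPM, and those next below were Mir425 at 1075 ± 89.2 and Mir154 at 1036 ± 53.7 CPM (SD, n = 2 for each). Around Mir217 stood Mir3071 (352 ± 5.95 CPM), Mir421 (352 ± 17.7), Mir3099 (332 ± 39.8) and Mir501 (330 ± 6.90). Mir483, in an intron of the growth factor gene Igf2, Mir1264, Mir30b and Mir701 were the neighbours of Mir216b, from 137 ± 14.2 down to 122 ± 11.7 CPM. Mir92-2, Mir495, Gm23935 and Mir345 flanked Mir216a, from 95.1 ± 3.79 down to 86.9 ± 2.17 CPM. In all 16 cases the range of the 2 libraries overlapped that of the member, so ranks within these stretches are not resolved. With 2 libraries, level is the only measure of likeness between genes that could be given.

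Within the chromosome 11 locus the level did not follow the order of the hairpins along the strand. The first hairpin, Mir216b, gave 23.0% (Wilson 95% interval 21.2 to 25.0) of the 1878 counts of the locus in replicate 1 and 22.4% (20.7 to 24.2) of 2182 in replicate 2. The middle one, Mir216a, gave 15.0% (13.4 to 16.7) and 17.3% (15.8 to 18.9). The last, Mir217, gave 62.0% (59.8 to 64.2) and 60.3% (58.2 to 62.3). Mir217 thus held the larger part of the reads of its locus in both libraries, and the locus as a whole, at 624.6 and 484.0 CPM, stayed under Mir375 alone.

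**Figure D2:**
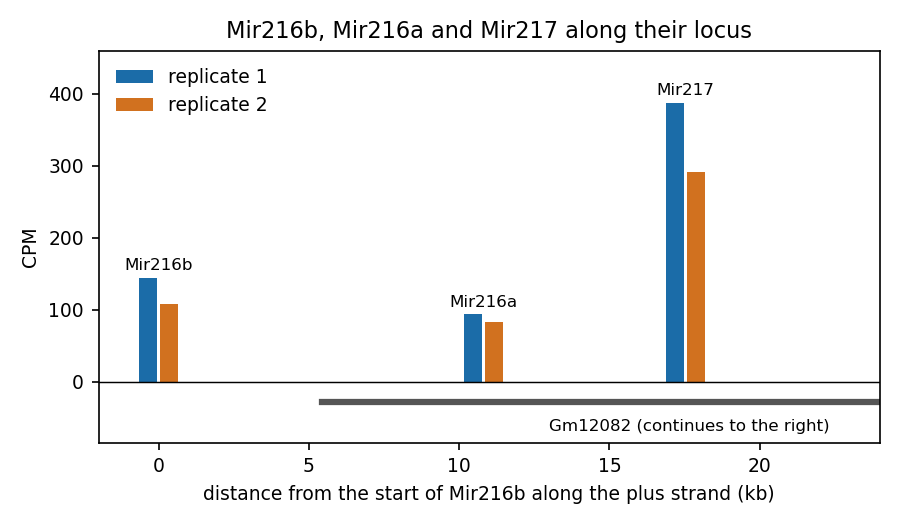
CPM of Mir216b, Mir216a and Mir217 (bars from 0, replicate 1 left and replicate 2 right, bar width not to scale) against distance from the start of Mir216b in kb, with the annotated extent of Gm12082 as a line below 0. Mir217, 17.5 kb from the start, reached 387.5 and 291.9 CPM, while Mir216a, 10.8 kb from it and also within Gm12082, stayed at 93.5 and 83.6.

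Ratios between members need no scaling of the libraries, and they were compared by two-sided Fisher's exact tests over all 6 pairs with Benjamini-Hochberg adjustment, for counting error only. Mir217 exceeded Mir216b 2.70-fold (exact interval 2.41 to 3.02) in replicate 1 and 2.69-fold (2.42 to 2.99) in replicate 2, with an adjusted p of 1 for the difference. Mir217 exceeded Mir216a 4.15-fold (3.64 to 4.74) and 3.49-fold (3.11 to 3.93), and Mir216b exceeded Mir216a 1.54-fold (1.32 to 1.79) and 1.30-fold (1.13 to 1.49), with an adjusted p of 0.151 for both. The direction of every ratio within the locus was the same in both libraries, and no change in these ratios was resolved at this depth.

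Mir375 exceeded Mir217 3.03-fold (2.83 to 3.24) in replicate 1 and 3.43-fold (3.23 to 3.65) in replicate 2, the 1 pair of 6 that passed, with an adjusted p of 0.0412 by Fisher's exact test. It exceeded Mir216b 8.16-fold (7.38 to 9.04) and 9.23-fold (8.41 to 10.2), with an adjusted p of 0.151. For Mir216a the ratios were 12.5 (11.1 to 14.2) and 12.0 (10.8 to 13.3), with an adjusted p of 0.714.

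Hairpins of other loci were often further apart in level than these. Neighbouring microRNA genes on 1 strand with gaps of at most 20 kb formed 45 clusters with at least 2 detected genes. The highest and lowest detected members of the Mir216b, Mir216a and Mir217 cluster differed 3.84-fold in mean CPM, while the median over clusters was 16.4-fold and the range 1.03 to 3426. In 32 of the 45 the range was wider, and among the 6 clusters with 3 detected genes it was wider in 4. Of the 32 wider clusters 16 held a detected gene that shares a 20-nt stretch with another hairpin. Among the 22 clusters without such a gene the range was wider in 16, with a median of 15.7-fold. Larger clusters have more genes to differ, so these counts describe the loci and test nothing.

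**Figure D3:**
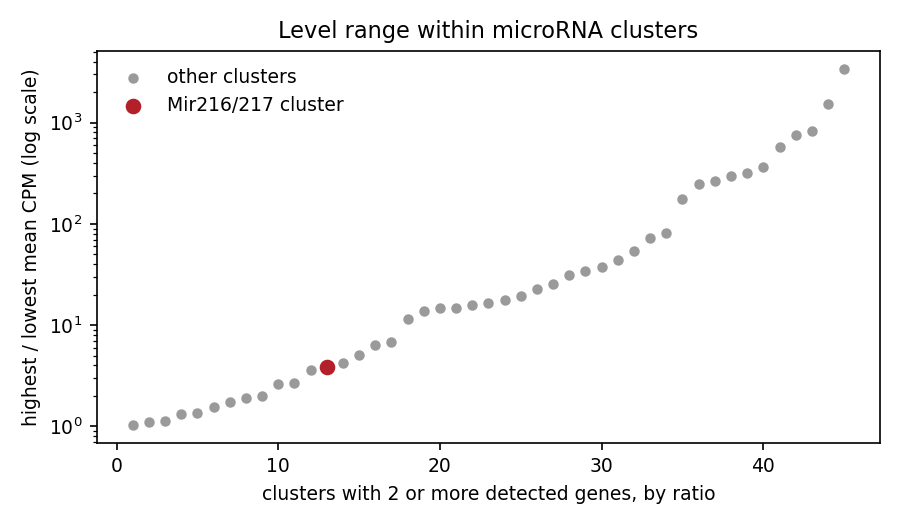
Ratio of the highest to the lowest mean CPM among detected genes (log axis) in each of 45 microRNA clusters, ordered by that ratio. The Mir216b, Mir216a and Mir217 cluster, at 3.84, has 32 clusters above it.

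All members were lower in replicate 2 in value. The log2 ratio of replicate 2 over replicate 1, with library sizes scaled by the trimmed mean of M values (TMM), was -0.26 for Mir375, -0.44 for Mir217, -0.44 for Mir216b and -0.20 for Mir216a. Each detected gene was tested with an exact binomial test, two-sided, and p-values were adjusted over all 356 by Benjamini-Hochberg. By this test, Mir375 (adjusted p = 7.14e-15), Mir217 (1.95e-13) and Mir216b (1.76e-05) were lower and Mir216a (0.171) did not pass. It takes counting as the only error and passed 45.2% of detected genes, 25% as lower and 20.2% as higher in replicate 2, so 3 of 4 is read against that share. The split turned with the scaling, from 72 higher and 89 lower with TMM to 92 higher and 77 lower with plain totals and 76 and 84 with DESeq2 size factors, while the same 3 members passed as lower under each.

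The common coefficient of biological variation between the libraries was 0.141 by edgeR, estimated from the same 2 libraries that were then compared. Differences between the libraries thus enlarge the spread they are tested against, so a lack of calls cannot show that they are equal. With that spread in edgeR's exact test, which called 1.4% of detected genes, no member passed, 0 of 4 also at an unadjusted p under 0.05. With a preset spread of 0.1 edgeR's exact test called 3.65% of detected genes and again no member, with 1 of 4 at an unadjusted p under 0.05. An absolute log2 ratio as large as that of Mir217 was found in 14.0% of detected genes, and one as large as that of Mir375 in 31.2%. The median log2 ratio was -0.35 over the members and -0.01 over detected genes. Each comparison sets 1 library against 1 library and says nothing about a condition.

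**Figure D4:**
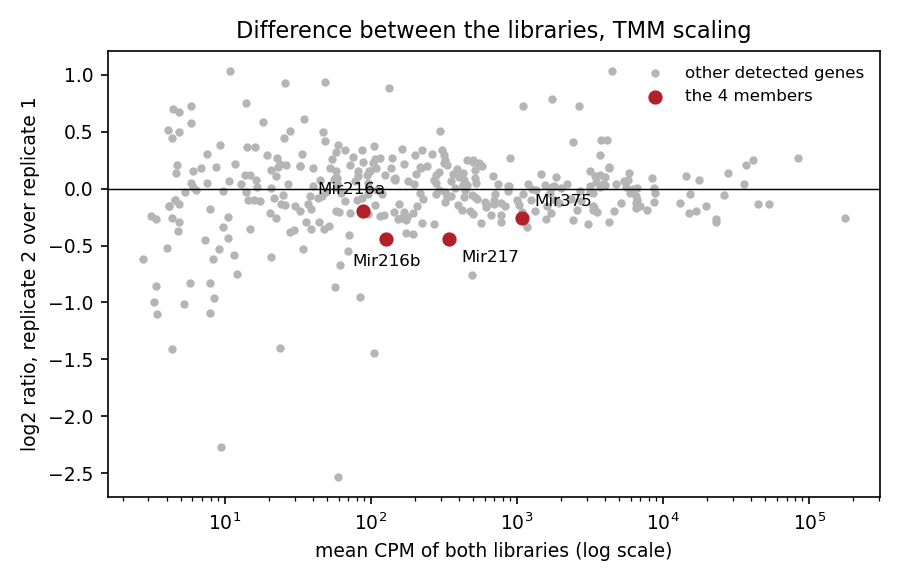
Log2 ratio of replicate 2 over replicate 1 (TMM scaling) against mean CPM (log axis) for 356 detected genes, members in red. The members lie below 0, between -0.44 and -0.20, inside the cloud of the other genes.

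The hairpins of the locus differed from one another by at most 0.25 in this log2 ratio, against a median range of 0.27 within the 45 clusters, of which 21 had a smaller one. In 11 clusters every detected gene was lower in replicate 2. Some markers of other cell types moved too: the 7 epithelial genes had a median log2 ratio of -0.86, 4 of them past the exact binomial test and lower, and sums of 800.6 and 687.9 CPM. The 4 were Mir429, Mir200c, Mir200b and Mir141, all of the mir-200 family. Mir203, the highest of the list at 519.2 and 506.0 CPM (log2 ratio -0.07), Mir205 (0.26) and Mir200a (-0.26) did not pass. The neuronal genes had a median of -0.18, with 3 of 4 detected genes past the binomial test and lower, and the Hox cluster genes 0.34, with 4 of 4 higher. Over all detected genes that test passed 25% as lower and 20.2% as higher. By edgeR's exact test with the preset spread of 0.1, no neuronal or Hox gene passed, while Mir429, Mir200c and Mir200b did. With the estimated spread the same test passed only Mir200b of these (adjusted p = 0.0172), and not Mir429 (0.152) or Mir200c (0.284). None of these lists had a gene at 0 in both libraries, and their part in the lower member values of replicate 2 was not tested. In bulk tissue, fewer cells of a type and less RNA per cell cannot be told apart.

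Of the 4 genes of the islet and neuroendocrine list besides Mir375, 3 were detected, all of the mir-7 family. This family is also known from neurons, and the cells that gave these reads were not tested. Mir7b, of the mir-7 family that is abundant in islets and pituitary, had 648.9 and 716.7 CPM. Mir7-1 had 440.0 and 447.6 CPM and Mir7-2 had 233.2 and 224.7 CPM. Mir7-1 and Mir7-2 share 5 stretches of 20 nt with other hairpins and are uncertain. Mir375 exceeded Mir7b 1.81-fold (1.71 to 1.91) in replicate 1 and 1.40-fold (1.34 to 1.46) in replicate 2. By the exact binomial test Mir7b was higher in replicate 2 (log2 ratio 0.11, adjusted p = 0.0217), while Mir7-1 (0.922) and Mir7-2 (0.343) did not pass. Mir184, known from the islet and the eye, had 7 and 4 counts and was not detected.

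In the exocrine pancreas list the gene besides the members was Mir148a, at 188.9 and 159.5 CPM, a level between Mir217 and Mir216b in both libraries. Mir217 exceeded it 2.05-fold (1.85 to 2.27) and 1.83-fold (1.67 to 2.01). Mir148a was lower in replicate 2 by the exact binomial test, with a log2 ratio of -0.28 and an adjusted p of 0.00195. It is also expressed in many other tissues.

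MicroRNAs of liver and gut were lower than the members' sum. The list summed to 170.6 and 187.2 CPM, 3 of its 6 genes were detected, and none of the 3 passed the exact binomial test in either direction. Mir192, of gut and kidney epithelium, had 74.5 and 80.1 CPM, Mir194-2, its neighbour, 56.2 and 61.4 CPM, and Mir122, the defining microRNA of hepatocytes, 36.9 and 42.8 CPM. Mir194-2 shares 3 stretches with other hairpins. Mir375 exceeded Mir122 31.8-fold (26.3 to 38.7) and 23.4-fold (20.3 to 27.2), and Mir217 exceeded it 10.5-fold (8.63 to 12.9) and 6.82-fold (5.86 to 7.97). Mir216a exceeded Mir122 less, 2.53-fold (2.03 to 3.18) and 1.95-fold (1.64 to 2.34). Mir215 (4 and 6 counts), Mir802 (3 and 6) and Mir194-1 (2 and 1) were not detected.

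The highest microRNA of the neuronal list and that of the Hox cluster list stood well above each member. Mir137, a regulator of neuronal differentiation, exceeded Mir375 5.23-fold in replicate 1 and 6.27-fold in replicate 2. Mir10a of the HoxB cluster exceeded it 64.3-fold and 92.6-fold. Other detected genes of these lists did not all stand so high. Mir153 had 1707 and 1451 CPM, closer to Mir375, while Mir128-1 (723.4 and 675.4) and Mir128-2 (531.8 and 467.6) were below Mir375. Mir128-1 and Mir128-2 each share 4 stretches with other hairpins, so their values may be too low. Their place below Mir375 is therefore uncertain. In the Hox list, Mir10b and Mir615 were also above Mir375, and Mir196b, at 17.6 and 34.4 CPM, was below all members. Among the lists for other cell types, Mir96, Mir182 and Mir183, listed for hair cells, summed to 10860 and 11780 CPM, above all members together. Which cells of the hindbrain samples gave these reads was not tested. Mir203, a microRNA of skin and other stratified epithelia, had 519.2 and 506.0 CPM and was exceeded by Mir375 2.26-fold (2.13 to 2.40) and 1.98-fold (1.88 to 2.08).

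Reads on the opposite strand of the members were not found, with 0 counts for each of the 4 in both libraries. A count of 0 allows up to 3 counts, 0.998 CPM in replicate 1 and 0.665 CPM in replicate 2. In GENCODE M21 a further hairpin, Mir216c, lies within Mir216b on the minus strand, at chr11:28746198-28746266. It is not analysed as a gene here, and reads from it would fall in the opposite-strand column of Mir216b. Of the 356 detected genes 330 (92.7%) also had 0 opposite-strand counts in both libraries, so this was the usual state of a row.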

How the data were processed

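The deposited values were raw read counts per microRNA gene, 1 table for each library, aligned to mm10 and counted on GENCODE M4 by the authors, per the deposited README files. The sources used here do not name the aligner or counter. The column with 98.1% of gene counts was taken as the annotated strand. Of 6141045 and 9486700 reads in replicates 1 and 2, 33.9% and 34.5% were multimapping and in no gene row. The 4 summary rows stayed out of library sizes.

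From these counts, CPM, exact Poisson intervals, exact binomial and Fisher's exact tests (scipy 1.17.1), TMM sizes over all gene rows and exact tests (edgeR 4.0.16) and size factors (DESeq2 1.42.0) were computed. With 1 group, edgeR's quasi-likelihood test could not be run. The binomial test was tested on data simulated with counting error only, so that check did not cover spread between replicates. Names and hosts came from GENCODE M21, which matched 1894 of 1973 identifiers. The text names the members, their level neighbours (2 above and 2 below), genes with a member's seed, and genes of 3 lists (islet and neuroendocrine, exocrine pancreas, liver and gut) and 6 marker lists (neurons, Hox clusters, hepatocytes, gut epithelium, hair cells, epithelia). Members and lists were chosen with earlier results of these data known. Alternatives were the strand column, library scaling, count filter, test, cluster gap and leaving out a library.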

Additional observations from a re-analysis of the deposited data

How the results depend on the processing

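Of 74 alternative values for 16 results, 62 were the same and 6 moved. The remaining 6 were log2 ratios that no longer passed under edgeR's exact test. Only the log2 ratios between libraries have a direction, and none of them changed sign. The members' levels moved by less than 1 SD under each strand and scaling tried, which these choices largely fixed in advance. The members had 0 opposite-strand counts, so either-strand counts changed only the library totals and could not change the ratios between members. The scaled library sizes kept the geometric mean of the totals, so a mean over both libraries could hardly move. Such alternatives add little to the 62. Leaving out a library gives the level of the other, which with 2 libraries is always within 1 SD and says nothing about stability. With either-strand counts, Mir375 ranked 96 and Mir216a 219 among 367 detected genes, since more rows are counted. Without either library in turn, Mir375 ranked from 88 to 92, Mir217 from 136 to 154, Mir216b from 184 to 199 and Mir216a from 206 to 214. The number of members past the test between libraries was 3 with every scaling, filter and strand choice, and 0 by the exact test of edgeR, both at a preset spread of 0.1 and at the estimated one (0), with adjusted p from 0.539 to 1 for the 4 members. Both add a spread between replicates that the binomial test leaves out, and the estimated one was drawn from the 2 libraries being compared. Divided by hairpin length, a choice made after seeing the data, the highest-to-lowest ratio in the chromosome 11 cluster was 2.56. With gaps of at most 10 kb Mir216b leaves the cluster, while Mir216a and Mir217, its lowest and highest genes, stay in it with the ratio of 3.84, and 32 clusters had a wider range, as many as with 20 kb. No paired analysis was possible because the libraries form 1 group. With 2 libraries, precision is limited by their number more than by depth for Mir375, Mir217 and Mir216b, whose counting intervals did not overlap between libraries.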
